A study of Homo sapiens with 40 samples.

Results

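A time course of NF-kB blockade in the human lymphoma line OCI-Ly3 was followed on 9 of the study's 40 spotted 2-colour arrays. The 9 arrays were all those whose titles name OCI-Ly3 with the inducible IkB super-repressor. OCI-Ly3 is an established lymphoma line, of the subtype of diffuse large B cell lymphoma whose expression resembles activated B cells. On each array, cells that carried an inducible IkB super-repressor and received 20 ng/ml doxycycline (Cy5) were set against uninduced cells of the same line (Cy3), so both sides of every ratio carried the construct. Doxycycline was given for 1 h (1 array), 1.5 h (1 array), 2 h (2 arrays), 3 h (1 array), 4 h (2 arrays) or 6 h (2 arrays). No array here measured doxycycline in cells without the super-repressor and no dyes were swapped, so effects of the drug itself and a gene's constant dye bias cannot be told apart from the blockade in a ratio at 1 time. The labels say neither whether replicate arrays came from separate cultures nor whether the transfected line was 1 clone, and p-values cover no more than the spread between the arrays. For comparison, the same construct was induced with the same dose in a second line, OCI-Ly10, against its uninduced cells (4 arrays, at 1.5, 3, 6 and 24 h). OCI-Ly3 cells, named without the construct, received 50 ng/ml IL-10 and were set against untreated cells (10 arrays, of which the 6 at 1, 3 and 6 h were used).

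NF-kB is a family of dimeric transcription factors, built from RELA, RELB, REL and the products of NFKB1 and NFKB2, that IkB proteins hold in the cytoplasm. Signals from receptors such as the B cell receptor, CD40 or TNF receptors activate IkB kinase, IkB is degraded, and the freed dimers switch on genes for cytokines, survival proteins and their own inhibitors, among them IkB alpha (gene NFKBIA) and A20 (gene TNFAIP3). Lymphomas of this subtype commonly keep the pathway switched on, and a super-repressor is a form of IkB alpha that resists degradation. The course addresses which transcripts were lost once NF-kB was held back, and in what order.

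Values are log2 ratios of induced over uninduced cells, as the authors deposited them, with base 2 assumed because the base is not stated. Each array was centred on its median, and probes of a gene were averaged, which gave 4604 genes. Between 13731 and 14343 of 15246 probes had a value on these arrays. A ratio gives no level, so the presence of B cell markers could not be read from it. The identifiers in the array titles fell into 2 consecutive runs, which the labels do not describe, with 1 h and the first replicates of 2, 4 and 6 h in run 1 and the others in run 2. The first 2 h array stood apart. Its correlation across probes with the other 8 arrays was -0.19 to 0.22, and with its own replicate -0.016. All other pairs lay between 0.205 and 0.709, with 0.676 for the pair at 4 h and 0.535 for the pair at 6 h. Counts and early values that rest on the first 2 h array are given with and without it.

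By 4 and 6 h the feedback inhibitors NFKBIA and TNFAIP3 had the lowest ratios of all tested genes. The mean of the 4 arrays at 4 and 6 h was tested against 0 with limma, and 385 of 4474 genes passed an adjusted p of 0.05 (8.61%). Of these, 128 fell (2.86%) and 257 rose (5.74%). Changes of at least 0.5 on the log2 scale were fewer and mostly losses, with 44 genes lower and 23 higher, and those of at least 1 numbered 5 lower and 1 higher. Late means in the 2 runs correlated at 0.773 across 4271 genes, which are not independent replicates. With the run as a random block, 58 genes fell and 134 rose, all 192 among the 385. A fit on the 9 arrays alone passed 177 genes, 44.6% of them higher against 66.8%, and leaving out 1 of the 4 arrays lowered the count to 67 to 159 genes. Fewer cells of a type and less RNA per cell cannot be told apart in such bulk samples.

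NFKBIA, which encodes IkB alpha, had log2 ratios of -0.01 at 1 h, -0.19 at 1.5 h, -1.41 and -0.71 at 2 h, -1.52 at 3 h, -1.66 and -1.69 at 4 h, and -2.07 and -2.27 at 6 h. It was near 0 on the earliest array, and every array from 3 h on lay below every array up to 2 h. Its mean at 4 and 6 h was -1.92 ± 0.13 (SE, n = 4 arrays, limma adjusted p = 2.69e-08), or 0.264 times the uninduced level. Probes of NFKBIA may also detect the introduced super-repressor, so these ratios may not show the cells' own transcript alone, and the 5 probes ranged from -2.15 to -1.49. TNFAIP3, which encodes the ubiquitin-editing enzyme A20, had 0.03 at 1 h, -0.31 at 1.5 h, -1.23 and -0.53 at 2 h, -1.09 at 3 h, -1.19 and -1.15 at 4 h, and -1.62 and -1.59 at 6 h. The 1 h array showed no loss, and the first 2 h array was lower than its replicate for both genes. The late mean of TNFAIP3 was -1.39 ± 0.12 (adjusted p = 8.66e-07), with 6 probes between -1.61 and -1.28. NFKBIE, which encodes IkB epsilon, had 0.11 at 1 h, -0.18 at 1.5 h, -0.57 and -0.21 at 2 h, -0.67 at 3 h, -0.69 and -0.78 at 4 h, and -1.09 and -1.13 at 6 h. All late arrays were again below all arrays up to 2 h, and the late mean was -0.92 ± 0.11 (adjusted p = 2.05e-05). Of 8 tested inhibitors and feedback genes, 4 fell and 0 rose, with a median of -0.27 against -0.01 over all genes. The fourth was NFKBID, which encodes the nuclear IkB protein IkBNS, at -0.39. NFKBID missed the threshold with the run as a random block (adjusted p = 0.0744), and over all genes 2.86% fell. The deubiquitinase gene CYLD was at -0.16, BCL3 at -0.06 and NFKBIB, which encodes IkB beta, at 0.12, none of them past the test.

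Promoters of some of the genes that fell hold short matches to the kappaB consensus, the motif that NF-kB binds. The 200 bases before the annotated start are shown for 5 genes that fell and were picked because they have such a match, from RefSeq on GRCh38.p14, read 5' to 3' on the strand of the gene, with each match on either strand in capitals. They are given to show where the pathway's motif lies in genes that differ in the time of their loss.
NFKBIA, chr14:35404750-35404949, minus strand: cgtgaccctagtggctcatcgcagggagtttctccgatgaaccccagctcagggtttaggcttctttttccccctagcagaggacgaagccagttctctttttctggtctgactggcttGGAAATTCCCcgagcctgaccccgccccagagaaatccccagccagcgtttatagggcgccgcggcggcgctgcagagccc
TNFAIP3, chr6:137867059-137867258, plus strand: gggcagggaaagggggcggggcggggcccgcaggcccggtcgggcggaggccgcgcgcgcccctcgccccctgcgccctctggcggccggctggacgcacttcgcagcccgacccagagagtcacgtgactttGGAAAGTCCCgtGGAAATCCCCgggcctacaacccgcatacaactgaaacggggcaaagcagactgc
MAP3K8, chr10:30433821-30434020, plus strand: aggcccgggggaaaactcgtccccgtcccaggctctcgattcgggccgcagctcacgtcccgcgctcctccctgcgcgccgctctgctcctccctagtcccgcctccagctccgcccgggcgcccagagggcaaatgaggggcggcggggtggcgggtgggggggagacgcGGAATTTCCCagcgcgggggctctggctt
CXCL10, chr4:76023498-76023697, minus strand: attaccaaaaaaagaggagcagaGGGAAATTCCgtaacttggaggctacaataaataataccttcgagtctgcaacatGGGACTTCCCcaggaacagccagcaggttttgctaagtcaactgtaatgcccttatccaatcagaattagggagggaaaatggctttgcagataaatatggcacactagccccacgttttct
CFLAR, chr2:201118516-201118715, plus strand: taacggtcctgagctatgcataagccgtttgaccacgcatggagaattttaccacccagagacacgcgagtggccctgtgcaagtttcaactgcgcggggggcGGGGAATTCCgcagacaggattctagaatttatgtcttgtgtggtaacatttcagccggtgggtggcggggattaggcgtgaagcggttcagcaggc
NFKBIA had 1 match at -81, TNFAIP3 had 2, at -67 and -55, and MAP3K8 had 1 at -29, counted from the start site. CXCL10 had 2, at -177 and -122, and CFLAR 1 at -97. IL6 had 1 at -73, FAT1 1 at -100 and TASL 1 at -102, and MTMR14 had a stretch at -210 that matched on both strands. With these, all matches found among the 44 genes lower by at least 0.5 are named. Over 250 bases before to 50 after the start, the motif was found in 13.5% of promoters of genes that fell at 4 and 6 h (14 of 104 with a promoter in the table), in 3.26% of those of genes that rose (7 of 215), in 7.27% of all tested genes (265 of 3645) and in 5.72% of all promoters (1562 of 27305). Among the 44 genes lower by at least 0.5, it was in 7 of 24 promoters of genes that had lost 50% of their late change by 3 h and in 2 of 13 of those that lost it later. TNF, INPP4A, CXCL13, BCL2A1, MARCKS, PIM2, ZFP36L1, IER5 and OLA1, which were among the lowest genes, had no match in this window. These are letter matches and a description, with no test.

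Genes of the signalling chain fell in part. MAP3K8, a kinase bound to the NFKB1 precursor and upstream of ERK, had -0.06 at 1 h, -0.15 at 1.5 h, -0.44 and -0.16 at 2 h, -0.68 at 3 h, -0.95 and -0.77 at 4 h, and -0.91 and -0.95 at 6 h. The loss was mostly complete by 4 h, and the 4 late arrays did not overlap the early ones. Its late mean was -0.90 ± 0.08 (adjusted p = 1.59e-06), with 4 probes between -1.24 and -0.42. RELB, the partner of p52 in the non-canonical pathway, had 0.01 at 1 h, 0.02 at 1.5 h, -0.07 and 0.09 at 2 h, -0.21 at 3 h, -0.63 and -0.41 at 4 h, and -0.53 and -1.08 at 6 h. No array up to 2 h was below -0.1, while both 4 h and both 6 h arrays were below -0.4. The late mean of RELB was -0.66 ± 0.09 (adjusted p = 0.000162). TRAF1, an adaptor of TNF receptors, fell by 0.55 ± 0.06 (adjusted p = 1.73e-05), and its 5 probes ranged from -0.86 to -0.14. NFKB2, which encodes the p52 precursor, was at -0.38 and the lymphotoxin beta receptor gene LTBR at -0.23. MALT1, a paracaspase gene, rose (0.34 ± 0.08, adjusted p = 0.0125). Of 27 subunits and upstream genes, 5 fell and 1 rose, with a median of -0.07, while over all genes 2.86% fell and 5.74% rose. LTBR missed the threshold with the random run block (adjusted p = 0.11). The subunit genes RELA (0.16) and REL (0.03) did not pass, nor did NFKB1 at -0.39 (adjusted p = 0.118).

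A few cytokine genes fell, at different paces. TNF had -0.13 at 1 h, -0.36 at 1.5 h, -0.89 and -0.69 at 2 h, -0.70 at 3 h, -0.69 and -0.53 at 4 h, and -1.13 and -1.26 at 6 h. It was below 0 on all 9 arrays, and the 2 h arrays lay within the range of the 4 late ones. Its late mean was -0.90 ± 0.08 (adjusted p = 8.66e-07) and, with NFKBIA, it was 1 of 2 genes of the NF-kB lists to pass in the early window of 1 to 2 h (-0.52 ± 0.08, adjusted p = 0.0108). CXCL10, a chemokine for T cells through CXCR3, had 0.12 at 1 h, 0.33 at 1.5 h, -0.21 and 0.31 at 2 h, -0.40 at 3 h, -0.99 and -0.63 at 4 h, and -1.79 and -1.65 at 6 h. It was above 0 on 3 of the 4 early arrays, and every later array was below all of these. The late mean of CXCL10 was -1.27 ± 0.11 (adjusted p = 1.14e-06). CXCL13, the chemokine that draws B cells to follicles, had -0.0010 at 1 h, 0.12 at 1.5 h, -0.38 and 0.10 at 2 h, -0.18 at 3 h, -0.38 and -0.45 at 4 h, and -1.10 and -1.88 at 6 h. Its 4 h arrays did not go below the first 2 h array by more than 0.1, and the 6 h arrays were far below (late mean -0.95 ± 0.16, adjusted p = 0.00197). IL6, a cytokine that activates STAT3, had a late mean of -0.69 ± 0.15 (adjusted p = 0.00781), with 3 late arrays between -0.50 and -0.45 and the second 6 h array at -1.33. The 5 IL6 probes ranged from -1.16 to -0.35. EBI3, a subunit of IL-27 and IL-35, was at -0.45. Of 28 tested cytokine and chemokine genes, 5 fell and 0 rose, while over all genes 2.86% fell. All 28 means were below 0, with a median of -0.25, against 52.1% of means over all tested genes. Lists of genes that B cells mostly do not express shifted the same way, with T and NK cell markers at a median of -0.17 (19 of 22 below 0, array medians -0.36 to 0.16) and myeloid markers at -0.16 (11 of 12 below 0, array medians -0.31 to 0.05). CD3D was at -0.19, CD14 at -0.05 and CSF1R at -0.25. The part of such a shift in the cytokine median was not tested. LTA, which encodes lymphotoxin alpha, was at -0.67 but did not pass (adjusted p = 0.0782), and IL10 was at -0.20 (adjusted p = 0.396).

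**Figure D1:**
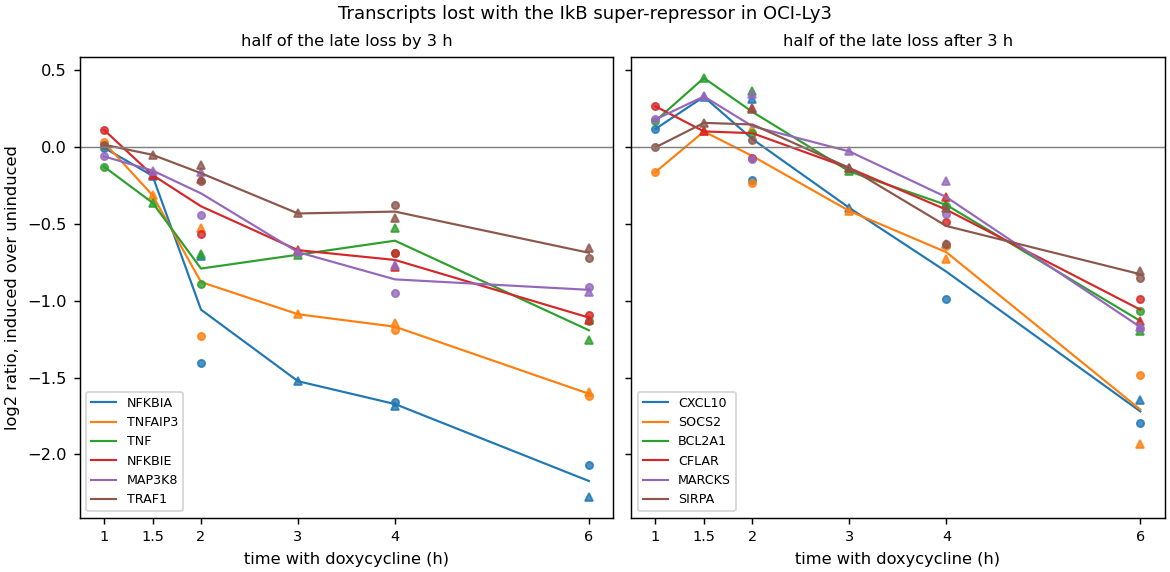
Log2 ratio of induced over uninduced OCI-Ly3 cells against time with doxycycline (h) for 6 genes that had lost 50% of their late change by 3 h (left) and 6 that lost it later (right). Points are arrays (circles run 1, triangles run 2) and lines join the means of each time point. Genes on the left are below 0 from 2 h on, and those on the right are mostly above 0 up to 2 h and reach -0.81 to -1.93 at 6 h.

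Some survival and activation genes also fell. BCL2A1, a BCL2 relative that blocks apoptosis, had 0.17 at 1 h, 0.45 at 1.5 h, 0.09 and 0.36 at 2 h, -0.16 at 3 h, -0.38 and -0.37 at 4 h, and -1.07 and -1.19 at 6 h. All 4 early arrays were above 0 and all 4 late arrays below 0, with the 6 h arrays far below the 4 h ones. Its late mean was -0.75 ± 0.07 (adjusted p = 2.27e-06). CFLAR, which encodes the caspase-8 inhibitor c-FLIP, had 0.26 at 1 h, 0.10 at 1.5 h, -0.07 and 0.25 at 2 h, -0.14 at 3 h, -0.49 and -0.33 at 4 h, and -0.99 and -1.13 at 6 h. The same split appeared, with only the first 2 h array slightly below 0 among the early ones, and the late mean was -0.73 ± 0.11 (adjusted p = 0.000228). CD80, a costimulatory ligand for T cells, had 0.08 at 1 h, 0.02 at 1.5 h, -0.28 and -0.06 at 2 h, -0.59 at 3 h, -0.52 and -0.64 at 4 h, and -0.87 and -0.90 at 6 h. It was close to 0 up to 2 h apart from the first 2 h array, and at 3 h it was already at the level of 4 h. The late mean of CD80 was -0.73 ± 0.08 (adjusted p = 1.41e-05). PIM2, a survival kinase, averaged -0.81 ± 0.17 late (adjusted p = 0.00764), and IRF4, a transcription factor on which these lymphomas depend, -0.59 ± 0.13 (adjusted p = 0.00758). Of 46 other NF-kB targets, 14 fell and 2 rose, against 2.86% and 5.74% over all genes, with a median of -0.16. With the run as a random block these counts were 11 and 0. ICAM1 (-0.72), an adhesion molecule, CD83 (-0.55), a marker of activated B and dendritic cells, and the phosphatase gene DUSP2 (-0.44) were among those that fell. JUNB (-0.14), CD44 (-0.12), CD69 (-0.07) and BCL2L1 (0.05) were targets that did not pass. Of 21 genes of the BCL2 family and death regulators, BCL2A1, CFLAR, BCL2 (-0.27) and the death receptor gene FAS (-0.24) fell and PMAIP1, which encodes the proapoptotic protein NOXA, rose (0.48 ± 0.08, adjusted p = 0.00106), while MCL1 was at 0.08 and did not pass. Counts with the random run block were 2 lower and 1 higher.

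MIR155HG, the host transcript of the oncogenic microRNA miR-155, had 0.04 at 1 h, 0.09 at 1.5 h, -0.14 and 0.02 at 2 h, -0.46 at 3 h, -0.54 and -0.53 at 4 h, and -0.68 and -0.88 at 6 h. It was within 0.15 of 0 up to 2 h, and all arrays from 3 h on were below -0.4. Its late mean was -0.66 ± 0.08 (adjusted p = 2.32e-05). The arrays measured the host transcript and not the mature microRNA, whose sequence is given to identify the product (RefSeq, GRCh38.p14, chr21:25573983-25574006, plus strand, in an RNA host gene, seed of bases 2 to 8 in capitals).
hsa-miR-155-5p: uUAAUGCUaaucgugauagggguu

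Outside the NF-kB lists, SOCS2, a feedback inhibitor of cytokine receptors, had -0.16 at 1 h, 0.10 at 1.5 h, -0.24 and 0.12 at 2 h, -0.42 at 3 h, -0.64 and -0.73 at 4 h, and -1.49 and -1.93 at 6 h. The 6 h arrays were the lowest, the 4 h arrays lay between them and the rest, and no late array overlapped an early one (-1.20 ± 0.13, adjusted p = 4.26e-06). INPP4A, a phosphoinositide phosphatase, had a late mean of -1.20 ± 0.16 (adjusted p = 0.000175), but its 2 probes differed, at -1.53 and -0.27. MARCKS, a membrane protein that binds actin and is a substrate of protein kinase C, had 0.18 at 1 h, 0.33 at 1.5 h, -0.08 and 0.34 at 2 h, -0.03 at 3 h, -0.43 and -0.22 at 4 h, and -1.17 and -1.17 at 6 h. It stayed at or above -0.1 up to 3 h, and was below -0.2 on all 4 late arrays (late mean -0.75 ± 0.08, adjusted p = 3.68e-06). ZFP36L1, which binds AU-rich messenger RNAs and speeds their decay, was at -0.79 ± 0.08 (adjusted p = 3.68e-06) and its relative ZFP36 rose (0.52 ± 0.08, adjusted p = 0.000333). The 4 probes of ZFP36L1 ranged from -1.37 to -0.07. IER5, an immediate-early gene, fell by 0.78 ± 0.11 (adjusted p = 0.00022) and OLA1, an ATPase gene, by 0.74 ± 0.10 (adjusted p = 0.000159).

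The order of loss was described for the 44 genes that fell by at least 0.5, as the time at which linear interpolation between time-point means, starting from 0 at 0 h, first reached 50% of the mean at 4 and 6 h. No test was made. This time was up to 1 h for 5 genes, over 1 and up to 2 h for 12, over 2 and up to 3 h for 11 and over 3 h for 16, with a median of 2.36 h and a range of 0.498 to 4.22 h. The earliest NF-kB genes were IL6 at 1.49 h, TNF at 1.6 h, PIM2 at 1.81 h, TNFAIP3 at 1.84 h, ICAM1 at 1.89 h, NFKBIA at 1.94 h and CD83 at 2.08 h. A middle group held ZFP36L1 (2.11 h), NFKBIE (2.26 h), MAP3K8 (2.38 h), TRAF1 (2.41 h), CD80 (2.47 h), IRF4 (2.47 h) and MIR155HG (2.67 h). The last were RELB at 3.38 h, CXCL10 at 3.57 h, SOCS2 at 3.68 h, CFLAR at 3.85 h, BCL2A1 at 4 h, MARCKS at 4.11 h, CXCL13 at 4.12 h and PLEK, a protein kinase C substrate of blood cells, at 4.21 h. ICAM1, CD83 and PLEK, and other genes outside the rule for named genes, were chosen after their values were seen. The 5 genes placed up to 1 h, N4BP3, FAT1, ANKMY1, EPHA5 and TBC1D22A, had late means of -0.66 to -0.50. Their place rests on the 1 h array alone, where they were at -0.50 to -0.37. N4BP3 was back at -0.12 at 2 h and -0.09 at 3 h. In run 2, which has no 1 h array, N4BP3 was at 1.54 h, FAT1 at 1.71 h and EPHA5 at 1.76 h. ANKMY1 (0.88 h) and TBC1D22A (0.78 h) stayed below 1 h there. Nearest to the limit of -0.5 were N4BP3 at -0.50 and CD36 at -0.50 inside it and CCL18 and SDC2, at -0.49 and -0.49, outside it.

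The order held in part when each run was taken alone. Over 40 genes with a value in both runs, the times had a Spearman correlation of 0.531 and a Pearson correlation of 0.546, as a description across genes that share the 2 sets of arrays. Run 1 has no 1.5 or 3 h array, so between 1 and 4 h its times rest on the first 2 h array, which stood apart. No run 1 time is given without that array. In run 1, 10 genes lay above 3 h, and 9 of them did so in run 2 as well, where 16 did. Those 9 were ADAM8, NABP1, SIRPA, CXCL10, SOCS2, CFLAR, BCL2A1, MARCKS and CD36. BCL2A1 was at 3.91 h in run 1 and 4.05 h in run 2, and CXCL10 at 3.24 h and 3.73 h. TNF was at 1.43 h and 1.63 h, NFKBIA at 1.66 h and 2.35 h, and TNFAIP3 at 1.58 h and 2.28 h. IL6 (1.7 and 3.51 h), ELK3 (1.54 and 3.77 h), PIM2 (1.38 and 3.65 h), OLA1 (1.62 and 4.01 h), CXCL13 (1.98 and 4.18 h) and KIAA0753 (1.94 and 3.73 h) differed widely between runs. Without the first 2 h array the counts were 5, 7, 15 and 17 genes, the median was 2.60 h, and NFKBIA stood at 2.31 h, TNFAIP3 at 2.30 h, TNF at 1.63 h and PIM2 at 3.91 h. Timed to 50% of the 6 h level instead, the counts were 5, 10, 10 and 19 genes, with IL6 at 3.47 h and IRF4 at 3.58 h.

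**Figure D2:**
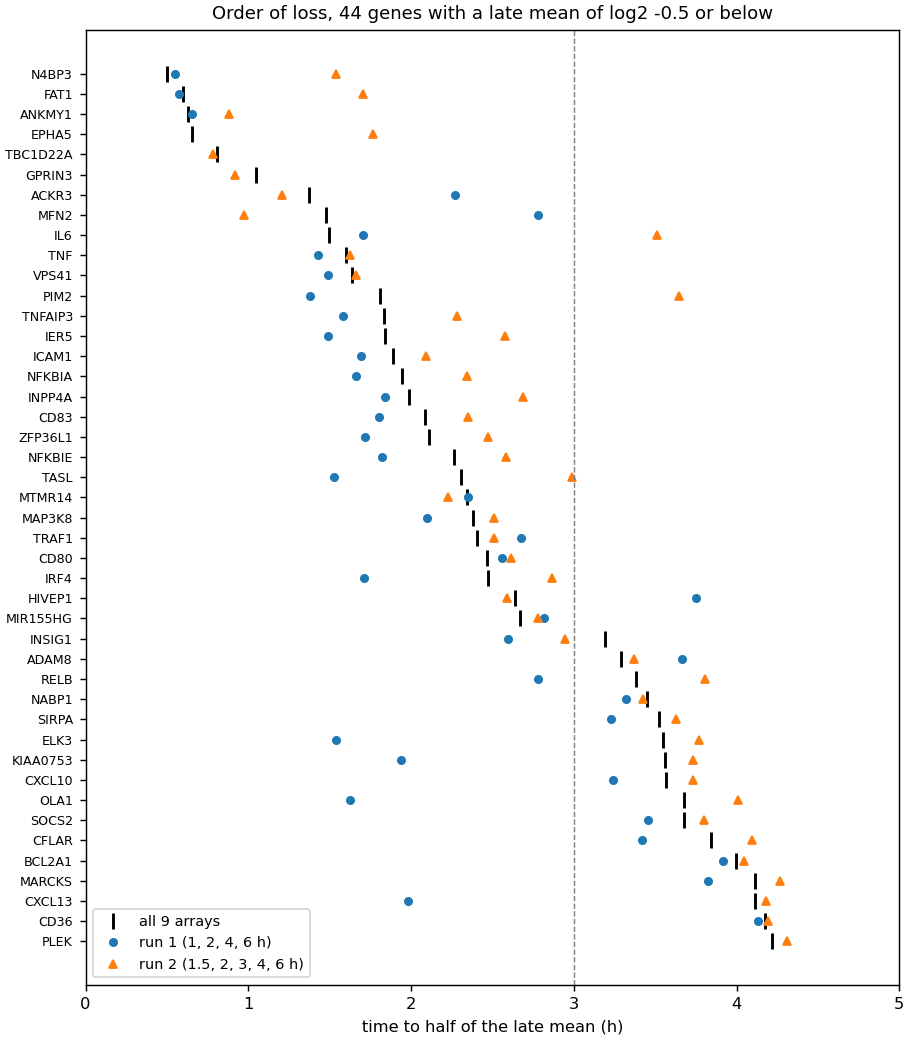
Time (h) to 50% of the late mean for the 44 genes lower by at least 0.5 on the log2 scale, in order from top to bottom, from all 9 arrays (black bars), from run 1 (blue circles) and from run 2 (orange triangles). TNF, NFKBIA and TNFAIP3 lie left of the dashed line at 3 h in both runs, and BCL2A1, CFLAR, SOCS2 and MARCKS lie right of it in both. Between 1 and 4 h, run 1 has only the first 2 h array, which stood apart.

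Change with time was tested directly as the mean of 4 and 6 h minus the mean of 1, 1.5 and 2 h, 4 arrays against 4, with 2 of each side in each run. A constant dye bias of a gene cancels in this difference. Of 4422 genes, 29 passed (0.656%), with 21 lower late (0.475%) and 8 higher late (0.181%). All 29 were also called in the same direction at 4 and 6 h, and the late minus early differences of the 2 runs correlated at 0.176 across 4102 genes. Of the 20 lower genes measured on all 8 arrays, 18 had every late array below every early one, and all 8 higher genes had every late array above every early one. Over all 4102 genes measured on all 8, this held for 105 and 154. The 29 genes were picked on these same 8 arrays, and the 4 late ones also gave the calls at 4 and 6 h. Neither the shared calls nor the separation of arrays is therefore independent evidence. An unadjusted p under 0.05 was reached by 237 genes. A random block for the run gave 51 genes (34 lower, 17 higher), the 29 among them, whereas a fit on the 9 arrays alone passed 4 genes, and leaving out 1 array 14 to 30.

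The steepest late losses were CXCL10 (-1.40 ± 0.16, limma adjusted p = 7.14e-05), NFKBIA (-1.34 ± 0.18, adjusted p = 0.000434), SOCS2 (-1.15 ± 0.18, adjusted p = 0.00185), BCL2A1 (-1.02 ± 0.10, adjusted p = 2.62e-05) and MARCKS (-0.94 ± 0.11, adjusted p = 7.14e-05). TNFAIP3 (-0.88), CFLAR (-0.87), NFKBIE (-0.71), MAP3K8 (-0.69), CD80 (-0.68), RELB (-0.67), MIR155HG (-0.66), ZFP36L1 (-0.59) and TRAF1 (-0.46) followed. The others were SIRPA, the receptor for CD47, at -0.78, NABP1, a single-stranded DNA-binding protein, at -0.74, PLEK at -0.73, the metalloprotease gene ADAM8 at -0.69, the centriolar satellite gene KIAA0753 at -0.64, the GTPase gene RHOF at -0.48 and the kinase gene PASK at -0.45. SIRPA had -0.0030 at 1 h, 0.16 at 1.5 h, 0.04 and 0.25 at 2 h, -0.14 at 3 h, -0.63 and -0.40 at 4 h, and -0.85 and -0.81 at 6 h. It was above -0.01 on every array to 2 h and below -0.3 on all 4 late arrays. TNF, whose loss was already -0.52 in the early window, differed by -0.38 ± 0.11 between the windows and did not pass (adjusted p = 0.2). Without the first 2 h array, 26 genes passed (22 lower, 4 higher), 22 of them among the 29. NFKBIA was then at -1.62 and TNFAIP3 at -1.12. ADAM8 (adjusted p = 0.068), RHOF (adjusted p = 0.0616) and PASK (adjusted p = 0.13) then missed the threshold.

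Of the 8 genes that rose late, SLC1A4, a transporter of neutral amino acids, changed most. It had 0.01 at 1 h, -0.12 at 1.5 h, -0.10 and 0.28 at 2 h, 0.45 at 3 h, 0.90 and 0.92 at 4 h, and 1.31 and 0.95 at 6 h. It lay within 0.15 of 0 at 1 and 1.5 h, was in between at 3 h and was highest on the 4 late arrays, 2.03 times the uninduced level as a late mean (1.02 ± 0.10, adjusted p = 3.68e-06), with a late minus early difference of 1.00 ± 0.14 (adjusted p = 0.000923). It was measured by 1 probe. CXCR4, the receptor for the chemokine CXCL12, had 0.15 at 1 h, 0.11 at 1.5 h, 0.07 and 0.15 at 2 h, 0.18 at 3 h, 0.43 and 0.44 at 4 h, and 0.93 and 1.02 at 6 h. All arrays up to 3 h were below 0.2 and both 6 h arrays were above 0.9, the difference being 0.58 ± 0.12 (adjusted p = 0.0169). ID3, an inhibitor of E-protein transcription factors, had 0.10 at 1 h, -0.04 at 1.5 h, 0.09 and 0.20 at 2 h, 0.27 at 3 h, 0.51 and 0.49 at 4 h, and 0.88 and 0.89 at 6 h. The 6 h arrays were above the 4 h arrays, which were above all others (0.60 ± 0.11, adjusted p = 0.00637). The 3 probes of ID3 differed, with late means from 0.06 to 1.18. CYTIP, which binds cytohesins and regulates adhesion, differed by 0.54 ± 0.11 (adjusted p = 0.0169) and CYTH4, itself a cytohesin, by 0.47 ± 0.11 (adjusted p = 0.0469). BMP6, a secreted ligand of the TGF beta family, differed by 0.54 ± 0.11 (adjusted p = 0.0244), and SIT1, a membrane adaptor of lymphocytes, by 0.52 ± 0.12 (adjusted p = 0.0489). MAPKAPK2, a kinase downstream of p38, differed by 0.65 ± 0.14 (adjusted p = 0.0394), but its first 2 h array was at -0.78 and without it the difference was 0.49 (adjusted p = 0.277). BMP6 (0.0716), SIT1 (0.208) and CYTH4 (0.131) also had adjusted p above 0.05 without that array, while SLC1A4, ID3, CYTIP and CXCR4 stayed below it.

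Many of the other genes that rose at 4 and 6 h reached 50% of their late mean before 3 h, although 16 genes passed as higher in the early window. For the 70 genes higher by at least 0.4, the time to 50% of the late mean was up to 1 h for 9, over 1 and up to 2 h for 31, over 2 and up to 3 h for 13 and over 3 h for 17, with a median of 1.52 h. TNFRSF17, which encodes BCMA, was at 1.81 h, ARHGEF3 at 2.36 h, CYTIP at 2.44 h, SLC1A4 at 3.13 h, ID3 at 3.31 h and CXCR4 at 3.68 h. DHRS9, a retinol dehydrogenase relative, had 0.32 at 1 h, 0.53 at 1.5 h, 0.56 and 0.67 at 2 h, 0.57 at 3 h, 0.57 and 0.64 at 4 h, and 0.51 and 0.47 at 6 h. Its early and late arrays overlapped, with a late minus early difference of 0.03 ± 0.13 (adjusted p = 0.999). A change before 1 h and a constant dye bias would both give such ratios on these 9 arrays. On the comparison arrays DHRS9 was at 0.10, 0.54, 0.40 and 0.04 in OCI-Ly10 (1.5, 3, 6 and 24 h). With IL-10 it was at 0.11, 0.75 and 1.18 (1, 3 and 6 h). The part of a dye bias in the ratios of DHRS9 was not tested. The median of the 53 higher genes timed up to 3 h grew from 0.15 on the 1 h array to 0.47 by 6 h. Of these 53, 2 passed the late minus early test, CYTIP and BMP6. The part of a dye bias in the ratios of the others was not tested. TNFRSF17 (0.71 ± 0.09), ARHGEF3 (0.74 ± 0.10), NARF (0.66 ± 0.10), SH3BP5, an inhibitor of the kinase BTK (0.62 ± 0.06), the opioid-related peptide precursor gene PNOC (0.60 ± 0.10), the lysosomal protease gene LGMN (0.58 ± 0.14) and the metalloprotease gene ADAM19 (0.56 ± 0.08) were among the highest late means, with limma adjusted p of 4.18e-06 (SH3BP5) to 0.0201 (LGMN). The 5 probes of SH3BP5 ranged from 0.11 to 0.95. Between runs the times of 68 of the 70 genes had a Spearman correlation of 0.312, and 35 of the 68 lay above 3 h in run 1, against 15 in run 2. Between 1 and 4 h, run 1 has only the first 2 h array.

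**Figure D3:**
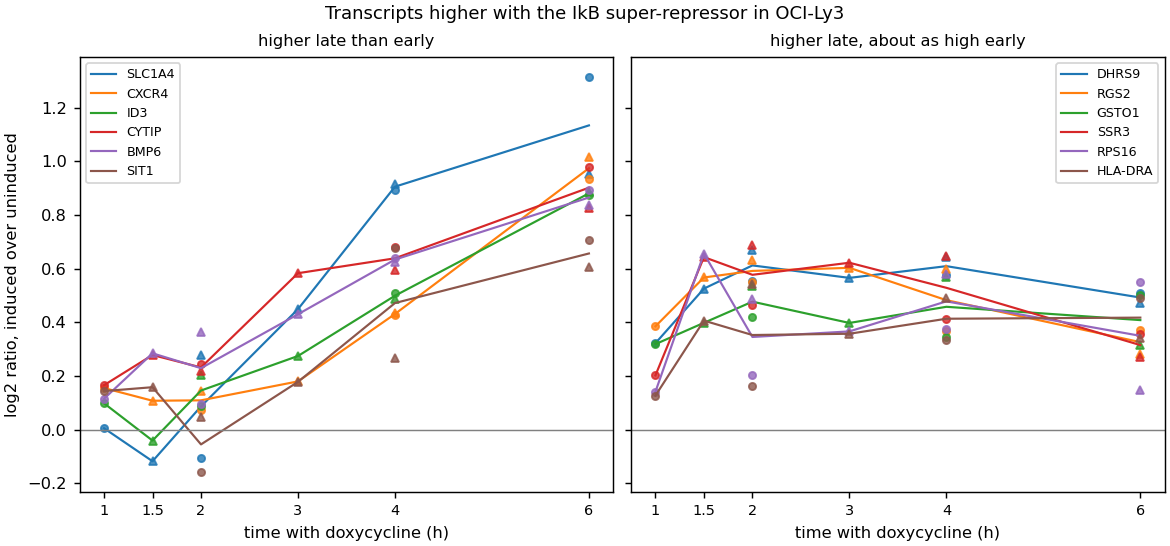
Log2 ratio of induced over uninduced OCI-Ly3 cells against time with doxycycline (h) for 6 genes that passed the late minus early test (left) and 6 that were higher late and about as high early (right). Points are arrays (circles run 1, triangles run 2) and lines join time-point means. CXCR4 and ID3 stay below 0.3 up to 3 h and are at 0.88 to 1.02 at 6 h, and DHRS9 is above 0.3 on all 9 arrays.

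Among lists by function, cytosolic ribosomal protein genes rose most often. Of 26 tested, 13 rose and 0 fell, with a median of 0.30, and 1 of 26 was below 0, against 52.1% of all genes. Their early median was 0.24 and their late minus early median 0.03, with 0 of 26 past that test. With the run as a random block 6 rose. RPS16 had 0.14 at 1 h, 0.66 at 1.5 h, 0.20 and 0.49 at 2 h, 0.37 at 3 h, 0.38 and 0.58 at 4 h, and 0.55 and 0.15 at 6 h, so it was as high at 1.5 h as at any later time. Cell cycle genes had 7 of 43 higher and 0 lower, a late median of 0.22 and an early median of -0.0037. Their late minus early median was 0.15, with 0 of 42 past that test. BUB1, a spindle checkpoint kinase, was at 0.36 ± 0.08 (adjusted p = 0.00876). CDC20, an activator of the anaphase-promoting complex, was at 0.33 ± 0.09 (adjusted p = 0.0312), and MAD2L1, a checkpoint protein gene, at 0.33 ± 0.08 (adjusted p = 0.0138). Without the first 2 h array the early means of BUB1, CDC20 and MAD2L1 were 0.29, 0.21 and 0.32. Of 24 glycolysis and hypoxia genes, SLC2A3 (0.49), LDHA (0.45) and PFKP (0.27) rose and none fell. The probes of SLC2A3 ranged from 0.24 to 1.47 and those of LDHA from 0.23 to 0.73. Of 17 MYC and growth genes ODC1 (0.33) and LDHA rose, MYC itself being at -0.16 ± 0.16 (adjusted p = 0.536). Of 17 genes of the amino acid and ATF4 response, SLC1A4 and ATF3 (0.50) rose. Of 14 p53 targets FAS fell and PMAIP1 rose, and of 7 heat shock genes none passed. PFKP (adjusted p = 0.0917), ODC1 (adjusted p = 0.0555) and FAS (adjusted p = 0.0715) missed the threshold with the random run block. Over all genes 5.74% rose. The random run block left 4 cell cycle genes higher, and without the first 2 h array 11 did.

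B cell and plasma cell genes moved in a few members, while over all genes 5.74% were called higher and 2.86% lower. Of 26 B cell and germinal centre genes, 4 rose and 0 fell, with a median of -0.0006. ID3 was one, with CD24 (0.49), CD79A (0.47), a chain of the B cell receptor complex, and the adaptor gene BLNK (0.32). MS4A1 (0.05), PAX5 (-0.23) and BCL6 (0.13) did not pass. Of 17 plasma cell genes, TNFRSF17 (0.71 ± 0.09, adjusted p = 7.04e-05), XBP1 (0.55 ± 0.09, adjusted p = 0.0013) and CD38 (0.40) rose and IRF4 fell, while PRDM1 was at 0.18. Of 16 migration receptors and RGS genes, CXCR4, CYTIP and RGS2 (0.40) rose and GPR183, an oxysterol receptor that guides B cells, fell (-0.48 ± 0.13, adjusted p = 0.0285). GPR183 missed the threshold with the run as a random block (adjusted p = 0.0709), a fit in which 2 B cell genes rose. Of 10 MHC class II genes HLA-DRA rose (0.42 ± 0.08, adjusted p = 0.00381). Of 27 interferon-stimulated genes, OAS1 (0.47 ± 0.07, adjusted p = 0.000443) and IRF9 (0.28) rose, IRF9 missing the threshold with the random run block (adjusted p = 0.11). Of 27 JAK-STAT genes and STAT3 targets, SOCS2, STAT5A (-0.35) and IL6R (-0.26) fell, and IL6ST (0.34), which encodes the shared receptor chain gp130, IL10RB (0.33), IL10RA (0.26) and IRF9 rose. Counts with the random run block were 1 lower and 2 higher. The 6 probes of IL6ST ranged from 0.03 to 0.66. STAT3 was at -0.16 ± 0.17 (adjusted p = 0.54) and SOCS3 at -0.13 ± 0.13 (adjusted p = 0.502). Of 28 immediate-early genes 3 fell (ZFP36L1, IER5 and DUSP2) and 3 rose (ZFP36, ATF3 and BTG1).

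Marker lists of other cell types gave few calls. IL7R fell among 22 T and NK cell markers (-0.30 ± 0.09, adjusted p = 0.0374), MNDA rose among 12 myeloid markers (0.42 ± 0.12, adjusted p = 0.0345), and 0 of 13 erythroid and stromal markers passed. Neither IL7R (adjusted p = 0.0974) nor MNDA (adjusted p = 0.06) passed with the random run block. None of these lists had a late minus early call.

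**Figure D4:**
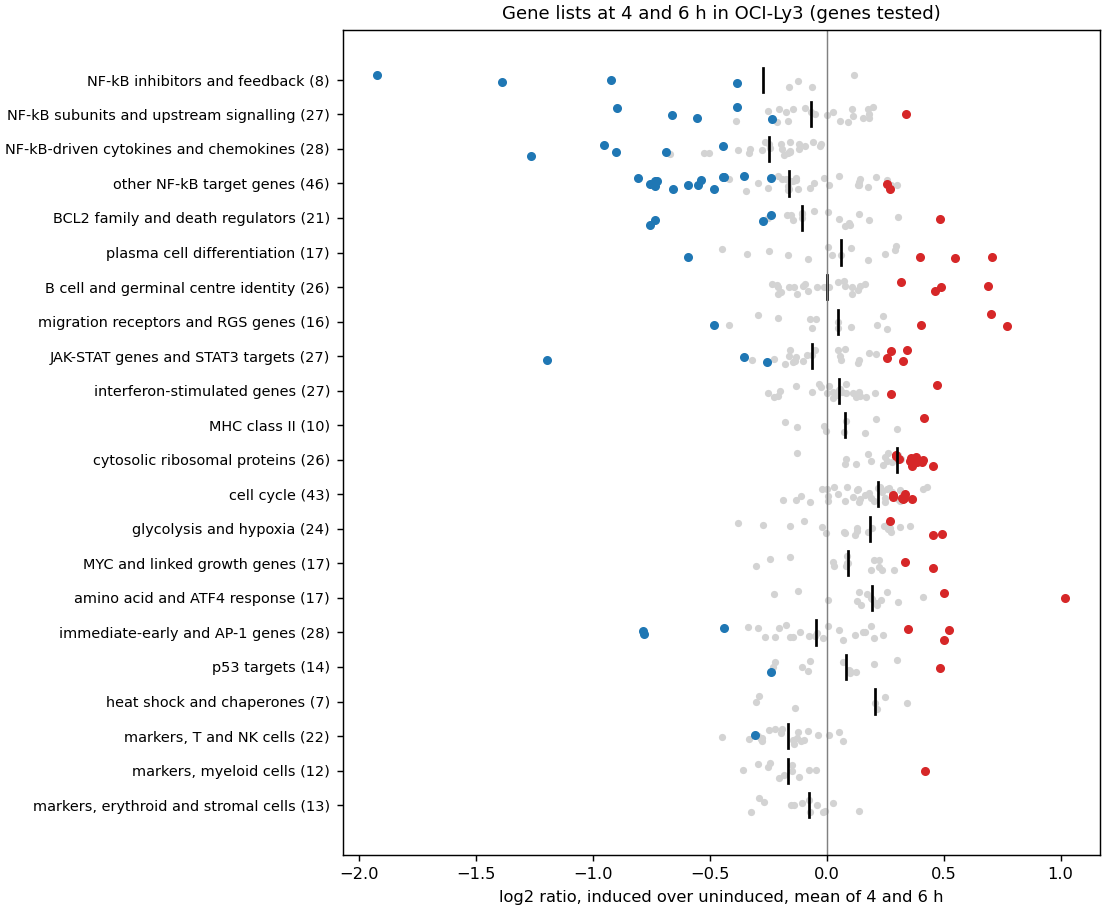
Mean log2 ratio at 4 and 6 h in OCI-Ly3 for each tested gene of 22 gene lists, with the number tested in brackets. Blue points fell and red points rose at an adjusted p of 0.05, grey points did not pass, and black bars are list medians. NFKBIA, TNFAIP3 and CXCL10 in the NF-kB lists and SOCS2 in the JAK-STAT list lie below -1, and 1 of 26 ribosomal genes lies below 0.

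Early changes were few. In the mean of 1, 1.5 and 2 h, 26 of 4444 genes passed (0.585%), with 10 lower (0.225%) and 16 higher (0.36%), and 16 of the 26 were also called in the same direction at 4 and 6 h. NFKBIA (-0.58 ± 0.13, limma adjusted p = 0.0451) and TNF (-0.52 ± 0.08, adjusted p = 0.0108) were 2 of the 10, and TNFAIP3 was just outside at -0.51 ± 0.12 (adjusted p = 0.057). Without the first 2 h array these early means were -0.30 for NFKBIA (adjusted p = 0.23), -0.40 for TNF (adjusted p = 0.0442) and -0.27 for TNFAIP3 (adjusted p = 0.237). The early window rests on few arrays. With the run as a random block 0 of 4444 passed (514 at an unadjusted p under 0.05), without the 1.5 h array or without the second 2 h array 1 passed, and without the first 2 h array 51 did.

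The same construct in OCI-Ly10 was compared at the 3 shared times. The mean of 1.5, 3 and 6 h in OCI-Ly3 (4 arrays) minus that in OCI-Ly10 (3 arrays) passed for 0 of 4384 genes by limma (0%), with 108 at an unadjusted p under 0.05 where a flat distribution of p-values gives 219.2. A difference was therefore not detectable with these arrays, which does not show that the lines responded alike. All 21 genes lower late than early in OCI-Ly3 were below 0 in OCI-Ly10 at 6 h, and all 8 higher ones were above 0, on 1 array, against 2288 below and 2139 above 0 among 4435 genes. Their medians at 6 h were -0.88 in OCI-Ly3 and -0.38 in OCI-Ly10 for the lower genes, and 0.87 and 0.30 for the higher ones. At 3 and 24 h in OCI-Ly10, on 1 array each, 19 and 20 of the 21 were below 0. Of the 8 higher genes, 5 and 6 were above 0 at these times. SLC1A4 was at 0.54, 0.42 and -0.008 in OCI-Ly10 at 3, 6 and 24 h. CXCL10 was at -1.72 at 6 h in OCI-Ly3, and in OCI-Ly10 it had -0.15 (1.5 h), -0.45 (3 h), -1.25 (6 h) and -1.96 (24 h). PLEK was at -0.88 (1 measured array) at 6 h in OCI-Ly3, against -0.25 at 3 h and -0.86 at 6 h in OCI-Ly10, and BCL2A1 at -1.13 against -0.14 and -0.58. These 3 late genes were again lower at 6 h than at 3 h in the second line. SOCS2 was at -1.71 at 6 h in OCI-Ly3 and had -0.25 (1.5 h), -0.65 (3 h), -0.10 (6 h) and -0.10 (24 h) in OCI-Ly10, and CXCL13 was at -1.49 and 0.05 at 6 h in OCI-Ly3 and OCI-Ly10, though the tests of these line differences did not pass. For the 28 genes of the loss order at or under 3 h, the medians in OCI-Ly10 were -0.10 at 1.5 h, -0.25 at 3 h and -0.21 at 6 h, and for the 16 later ones -0.02, -0.15 and -0.36. In OCI-Ly10 the median of the later genes was lower at 6 h than at 3 h, and that of the earlier genes was not, on 1 array each.

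**Figure D5:**
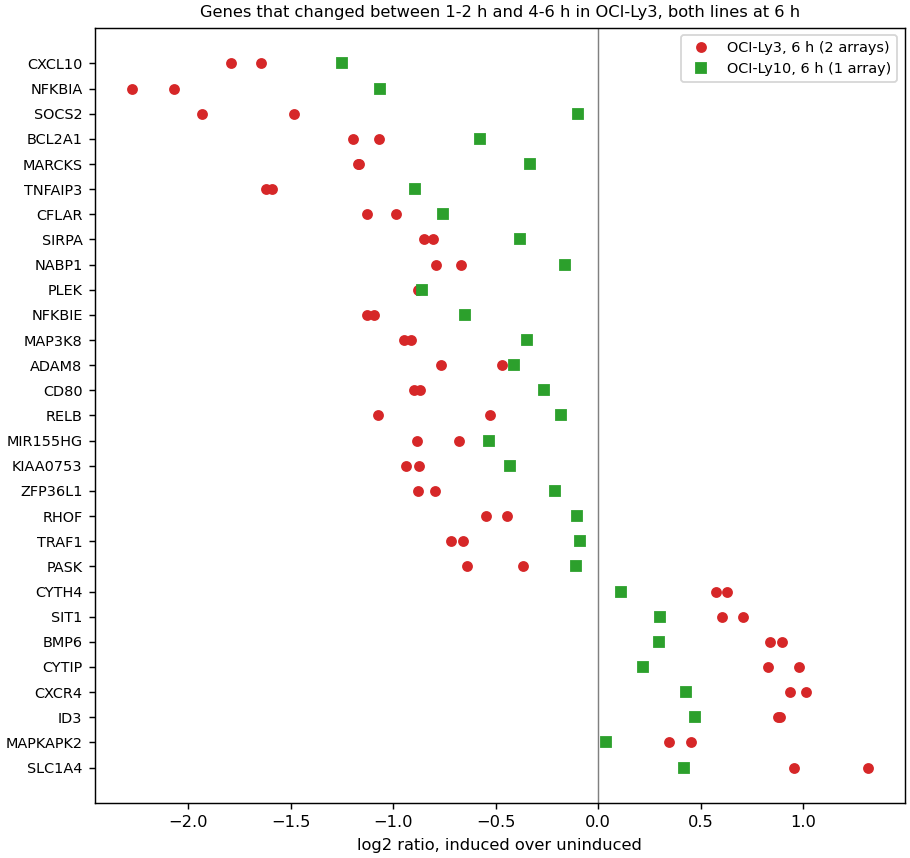
Log2 ratio of induced over uninduced cells at 6 h for the 29 genes that passed the late minus early test, in OCI-Ly3 (red circles, 2 arrays) and OCI-Ly10 (green squares, 1 array). All OCI-Ly10 values have the sign of OCI-Ly3, and MAPKAPK2, TRAF1 and SOCS2 lie nearest to 0 in OCI-Ly10 (0.04, -0.09 and -0.10).

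IL-10, a cytokine that signals through STAT3, gave a second treatment to set against the blockade, though in cells named without the construct. The mean of 1, 3 and 6 h with the super-repressor (4 arrays) minus that with IL-10 (6 arrays) passed for 154 of 4336 genes (3.55%), with 96 lower (2.21%) and 58 higher (1.34%). The OCI-Ly3 arrays at 1 and 6 h also entered the late minus early test, so calls in both tests are not independent. NFKBIA was at -0.01, -1.52 and -2.17 at 1, 3 and 6 h with the super-repressor and at 0.25, 0.53 and 0.07 with IL-10, a difference of -1.52 ± 0.17 (limma adjusted p = 1.01e-05). TNFAIP3 was at 0.03, -1.09 and -1.61 against 0.48, 0.70 and 0.67 (-1.51 ± 0.16, adjusted p = 6.16e-06). Both genes were below 0 with the blockade at 3 and 6 h and above 0 with the cytokine. SOCS2 was at -0.16, -0.42 and -1.71 against 0.73, 2.08 and 1.98 (-2.36 ± 0.17, adjusted p = 3.79e-08), and GPR183 at 0.15, -0.19 and -0.67 against 1.68, 2.49 and 3.42 (-2.77 ± 0.18, adjusted p = 1.09e-08). IRF4 (-1.06 ± 0.17, adjusted p = 0.00052), MIR155HG (-0.80 ± 0.11, adjusted p = 6.27e-05) and STAT3 (-1.49 ± 0.22, adjusted p = 0.000246) were also lower than with IL-10. STAT3 was at 0.07, -0.08 and -0.32 with the super-repressor against 0.16, 2.02 and 1.94 with IL-10. Its difference therefore lay mostly in the rise with IL-10. IRF4 was at 0.14, -0.34 and -0.77 against 0.61, 1.07 and 0.51. Among the late risers, SLC1A4 was at 0.01, 0.45 and 1.13 with the super-repressor against -0.50, -1.05 and -0.75 with IL-10 (1.29 ± 0.14, adjusted p = 1.15e-05), and ARHGEF3 at 0.05, 0.55 and 0.83 against -0.04, -1.34 and -1.39 (1.40 ± 0.13, adjusted p = 1.22e-06). Each of these 2 had opposite signs at 3 and 6 h in the 2 treatments. MAP3K8 was at -0.06, -0.68 and -0.93 against 0.09, -0.72 and -1.05 and TNF at -0.13, -0.70 and -1.19 against -0.51, -0.58 and -1.47, and neither difference passed (adjusted p = 0.997 and 0.444). Of the 21 genes lower late than early, 10 were called lower than with IL-10, and of the 8 higher ones 7 were called higher. Of 26 tested losses timed up to 3 h, 12 were called lower. MARCKS, SIRPA, NFKBIE, ZFP36L1 and CXCL10 did not pass (limma adjusted p = 0.929, 0.804, 0.733, 0.456 and 0.126). The 13 ribosomal protein genes called at 4 and 6 h gave no call here, the list having a median difference of 0.09 and 0 of 26 past the test.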

How the data were processed

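The authors deposited 1 log2-scale ratio of Cy5 over Cy3 per probe and array, per the labels' dyes, with the base not stated and read as 2 (values from -7.868 to 5.81, 12.6% of cells blank). For background correction, spot filter and normalization the methods were not given in the sources used here. RNA was extracted with Trizol and primed with oligo-dT, per the labels. The array medians of the deposited values were close to 0.

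Arrays were centred on their medians, and the 10169 of 15246 probes that the platform annotation gives 1 gene symbol were averaged per gene. All 40 arrays entered a fit with a mean for each experiment and time (limma 3.58.1, R 4.3.3), in which contrasts were tested with moderated statistics, Benjamini-Hochberg adjustment and a threshold of 0.05. A gene needed a value at every time point and on 75% of the arrays of a contrast. The code was tested on simulated data. A time point with 1 array takes its spread from the other arrays. Signal over background was not used here, so only the number of arrays shows the precision.

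Named genes were the 15 lowest and 15 highest at 4 and 6 h, the 8 lowest and highest late minus early differences, up to 3 called members per list and 11 set genes, and others were chosen after their values were seen. Experiment, 22 gene lists and rules were all chosen with earlier results of these data known. Alternatives covered the arrays in the fit, blocks, centring, scaling, probes, missing values and single arrays. Promoter and microRNA sequences came from RefSeq (GRCh38.p14). The NF-kB consensus was searched on both strands, and NFKBIE and SOCS2 had no promoter in the table.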

Additional observations from a re-analysis of the deposited data

Results flagged for a closer look

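The difference between the late times (4 and 6 h) and the early times (1, 1.5 and 2 h) of the same induced over uninduced comparison passed its own test for 29 genes, which is what singles them out here. The lower ones were CXCL10 (-1.40), NFKBIA (-1.34), SOCS2 (-1.15), BCL2A1 (-1.02), MARCKS (-0.94), TNFAIP3 (-0.88), CFLAR (-0.87), SIRPA (-0.78), NABP1 (-0.74), PLEK (-0.73), NFKBIE (-0.71), MAP3K8 (-0.69), ADAM8 (-0.69), CD80 (-0.68), RELB (-0.67), MIR155HG (-0.66), KIAA0753 (-0.64), ZFP36L1 (-0.59), RHOF (-0.48), TRAF1 (-0.46) and PASK (-0.45), as log2 differences. The higher ones were SLC1A4 (1.00), MAPKAPK2 (0.65), ID3 (0.60), CXCR4 (0.58), CYTIP (0.54), BMP6 (0.54), SIT1 (0.52) and CYTH4 (0.47). No time point had more than 2 arrays, so no array could be tested as an outlier within its group.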

How the results depend on the processing

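The 385 calls at 4 and 6 h became 177 (44.6% of them higher, against 66.8%) from the 9 arrays alone, 192 with the run as a random block, 784 with it as a fixed block, 91 from the 6 h arrays alone, 910 over 9508 probes, and 67 to 159 leaving out any 1 of the 4 arrays. The 26 early calls became 0 from the 9 arrays alone, 0 with a random and 132 with a fixed run block, 70 after scaling arrays to equal spread, 51 over probes, 1 to 65 leaving out any 1 of the 4 arrays and 0 without both 2 h arrays. The 29 late minus early calls became 4 from the 9 arrays alone, 51 with a random run block, 17 after scaling, 78 over probes and 14 to 30 leaving out 1 array, the lowest counts coming without the 1 h (17) and 1.5 h (19) arrays and each of the 4 late ones. The 0 calls between the lines became 2 after scaling, and stayed 0 in each fit that left out 1 array. The 154 calls against IL-10 became 99 from the compared arrays alone, 362 over probes and 86 to 194 leaving out 1 array, with 86 without the 3 h array. Other alternatives, with no centring, the median of probes, complete genes and robust moderation among them, stayed within 1.5 times. Replicate numbers are shared in the labels, but replicate differences correlated between times at 0.336, -0.368 and -0.094. The values 0.336 and -0.368 rest on the first 2 h array, so pairing of samples can be neither shown nor excluded from them. With the replicate block the counts were 784, 132 and 37, equal to the fixed run block. No named gene reversed. Among alternative values for called named genes, 801 kept their call at 4 and 6 h and 143 did not, and 248 and 72 for late minus early. The causes were not tested. The 2 arrays per time point, at most, limit all times.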

Other observations

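Some losses lay outside all lists and were picked after their values were seen. ACKR3, a scavenger receptor for CXCL12, had a mean at 4 and 6 h of -0.73 ± 0.10 (limma adjusted p = 9.84e-05), while CXCR4, the signalling receptor for the same ligand, was at 0.70. VPS41, a gene of vesicle sorting to lysosomes, was at -0.71 ± 0.12 (adjusted p = 0.00213), TASL, an adaptor of endosomal Toll-like receptor signalling, at -0.67 ± 0.15 (adjusted p = 0.00981), and HIVEP1, whose protein binds kappaB-like sites, at -0.56 ± 0.12 (adjusted p = 0.00926). The ETS factor gene ELK3 was at -0.57 ± 0.11 (adjusted p = 0.00485) and INSIG1, a regulator of sterol synthesis, at -0.53 ± 0.13 (adjusted p = 0.0189). Their times to 50% of the late mean were 1.38 h for ACKR3, 1.63 h for VPS41, 2.31 h for TASL, 2.64 h for HIVEP1, 3.19 h for INSIG1 and 3.55 h for ELK3. By run, ELK3 was at 1.54 and 3.77 h, TASL at 1.53 and 2.99 h, HIVEP1 at 3.75 and 2.59 h and ACKR3 at 2.27 and 1.2 h.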
